A study of Mus musculus with 5 samples.

Results

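The genes described here are 3 growth arrest and DNA damage inducible genes, Gadd45a, Gadd45b and Gadd45g, and 3 protein kinase genes that neurons induce with activity, Sik1, Plk2 and Pim1. They were taken by gene symbol, which gave 9 probe sets for 6 genes, among 12393 genes with at least 1 probe set of a single symbol. A filter on dim signals kept 5 of the 6 genes and 5 of the 9 probe sets, among 6665 genes kept in all. The measurements are 5 Affymetrix arrays of the ventromedial hypothalamus (VMH) of C57Bl/6 mice, 1 array per group. Animals received 1 electroconvulsive shock (ECS) with tissue taken 2 h or 6 h later, or 7 shocks with tissue taken 2 h or 6 h after the last, or a sham procedure without current and with tissue taken at 2 h. All animals were under isoflurane, and the shock was bilateral, through ear clip electrodes, at 25 mA for 1 sec. Each array holds RNA pooled from 2 or 3 animals, laser-microdissected from sections of 7 µm and amplified from 2 ng. The labels give no age or sex. The sham array used here is from 2 h, so the 6 h arrays are not matched to it in time.

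GADD45 proteins are small acidic proteins without enzyme activity of their own. They bind the upstream kinase of the stress-activated MAP kinases and cell cycle proteins, and they recruit repair enzymes that remove methylated cytosine from DNA. Gadd45b in particular is known in mouse brain as an activity-induced gene tied to demethylation of growth factor promoters after seizures. SIK1, a salt-inducible kinase, is induced through CREB and phosphorylates the CREB coactivators of the CRTC family, which closes a feedback loop. PLK2, a polo-like kinase, is induced by sustained activity and marks synaptic scaffold proteins for removal, which lowers synaptic strength. PIM1 is a survival kinase that has no known regulatory subunit and is induced by cytokines through STAT factors.

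Values are MAS5 signals, which are brightness readings on a linear scale. With a single array for each group there is no replicate spread and no significance test, and precision is limited by having 5 arrays. Calls went by size: a gene counted as higher or lower once its log2 difference reached 1, or 2-fold. Before differences were taken, 1.2 was added to every signal, and arrays were brought to a common median over the kept probe sets, those averaging at least 28.4. Relative to sham, this median lay at -0.13 (2 h) and 0.40 (6 h) on the log2 scale after 1 shock, and at 0.51 (2 h) and 0.49 (6 h) after 7 shocks, and all centred differences are relative to these shifts. Among all genes called, the share higher in the group named first was 47.9% for 1 shock at 2 h over sham, and 33.9% without rescaling of the arrays. For the other ECS arrays it was 48.4% and 82.1% for 1 shock at 6 h over sham, 50.9% and 89.9% for 7 shocks at 2 h over sham, and 50.5% and 87.9% for 7 shocks at 6 h over sham. It was 52.0% and 94.0% for 7 shocks over 1 at 2 h, 48.9% and 59.0% for 7 over 1 at 6 h, and 51.0% and 89.2% for 6 h over 2 h after 1 shock, again with and then without rescaling. The array of 1 shock at 6 h stood apart, since 24 genes were lower on it by 4-fold or more than on any other, a count of 6 to 9 on each of the remaining arrays. Genes higher by as much than on any other array numbered 10 for 7 shocks at 6 h and 8 for 1 shock at 6 h. On the rest that count was 1 to 4. Of the VMH marker list 5 of 7 genes were kept, with Fezf1 and Nkx2-1 not kept, and the centred signals of the 5 summed to 2599 to 3680 on the ECS arrays and 2081 on sham. The 5 include Nptx2 and Adcyap1, the latter with a mean deposited signal of 1140, so the sum leans on that gene. Whether ECS changed the marker genes themselves was not tested. Microglial markers, 4 of 7 kept, summed to 797 to 1076 on the ECS arrays and 1236 on sham, and neuron markers to 12293 to 13778 and 11592. Markers of the neighbouring arcuate nucleus, 4 of 5 kept, summed to 558 at 2 h and 669 at 6 h after 1 shock. After 7 shocks they summed to 617 at 2 h and 1046 at 6 h, against 785 on sham. Their sum was thus highest on the array on which Sik1 was highest. Neuron markers (13778, against 13521 at 2 h after 1 shock) and astrocyte markers (1716, against 1635 on sham) also had their highest sums on that array. VMH markers (3680) and oligodendrocyte markers (5423, against 4630 on sham) had theirs on the array of 1 shock at 6 h, on which Sik1 was lowest. Endothelial markers, 3 of 5 kept, reached 279 on the array of 1 shock at 6 h and 110 to 121 on the other ECS arrays, and 169 on sham. None of the kept markers read 0, and their part in the results was not tested. A descriptive field names another nucleus, the PVN, and 3 of 5 PVN and supraoptic markers were kept, with sums of 187 to 247 on the ECS arrays and 149 on sham. In such bulk tissue, fewer cells of a type and less RNA per cell cannot be told apart.

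Gadd45b had the largest differences of the 6 genes from sham. It was highest at 2 h after 1 shock and at 6 h after 7 shocks on all of its 3 probe sets once arrays were centred. The probe set 1449773_s_at had deposited signals of 54.8 after 1 shock at 2 h, 27.5 after 1 shock at 6 h, 44.1 after 7 shocks at 2 h and 82.2 after 7 shocks at 6 h, against 26.1 in sham. Its log2 differences from sham were 1.17, -0.32, 0.22 and 1.13 in the same order of ECS arrays. The early array after 1 shock and the late array after 7 shocks were thus past 2-fold, and the other pair lay nearer to sham on centred arrays. Without rescaling the difference was 0.07 at 6 h after 1 shock and 0.73 at 2 h after 7 shocks. How near the latter array lay to sham thus depends on the scaling.

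The other probe sets of Gadd45b fell below the brightness filter, with mean signals of 23.3 and 20.4, and are given as further readings of the same RNA. On 1450971_at the deposited signals were 35.8 after 1 shock at 2 h, 7.0 after 1 shock at 6 h, 29.1 after 7 shocks at 2 h and 35.4 after 7 shocks at 6 h, against 9.2 in sham. On 1420197_at they were 46.5, 16.3, 3.4 and 31.4 in the same order, against 4.2 in sham. The 3 probe sets shared their sign at 2 h after 1 shock (1.17, 1.96 and 3.28) and at 6 h after 7 shocks (1.13, 1.33 and 2.11). They did not at 1 shock and 6 h (-0.32, -0.74 and 1.30) or at 7 shocks and 2 h (0.22, 1.04 and -0.74). Across all genes with more than 1 kept probe set, the brightest pair differed by a median of 0.44 to 0.49 in log2 difference, depending on the comparison. Where the brighter one was past 2-fold, the other shared its sign in 56.0% to 67.5% of genes.

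Gadd45g, the relative best known from cell cycle exit during neural development, was not past 2-fold from sham on any array. Its probe set 1453851_a_at read 58.0 after 1 shock at 2 h, 33.6 after 1 shock at 6 h, 51.4 after 7 shocks at 2 h and 60.7 after 7 shocks at 6 h, against 50.4 in sham. The log2 differences from sham were 0.33, -0.96, -0.48 and -0.22, of which the values after 7 shocks turned to 0.03 and 0.26 without rescaling. The array of 1 shock at 6 h was the lowest of the 5, and its difference from sham was -1.05 where the brightest 25% of probe sets alone set the centre.

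Gadd45a, the family member induced by DNA damage through p53, fell below the filter with a mean signal of 26.8. Its probe set 1449519_at read 19.7 after 1 shock at 2 h, 38.7 after 1 shock at 6 h, 23.8 after 7 shocks at 2 h and 30.0 after 7 shocks at 6 h, against 21.9 in sham. Its centred differences from sham lay between -0.39 and 0.39, with 1 shock at 6 h the highest, and without rescaling the values after 7 shocks were 0.11 at 2 h and 0.43 at 6 h. Within the family the centred reading of 1 shock at 6 h was the highest for Gadd45a and the lowest for Gadd45g and for the brightest probe set of Gadd45b, although for Gadd45b sham was the lowest without rescaling.

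**Figure D1:**
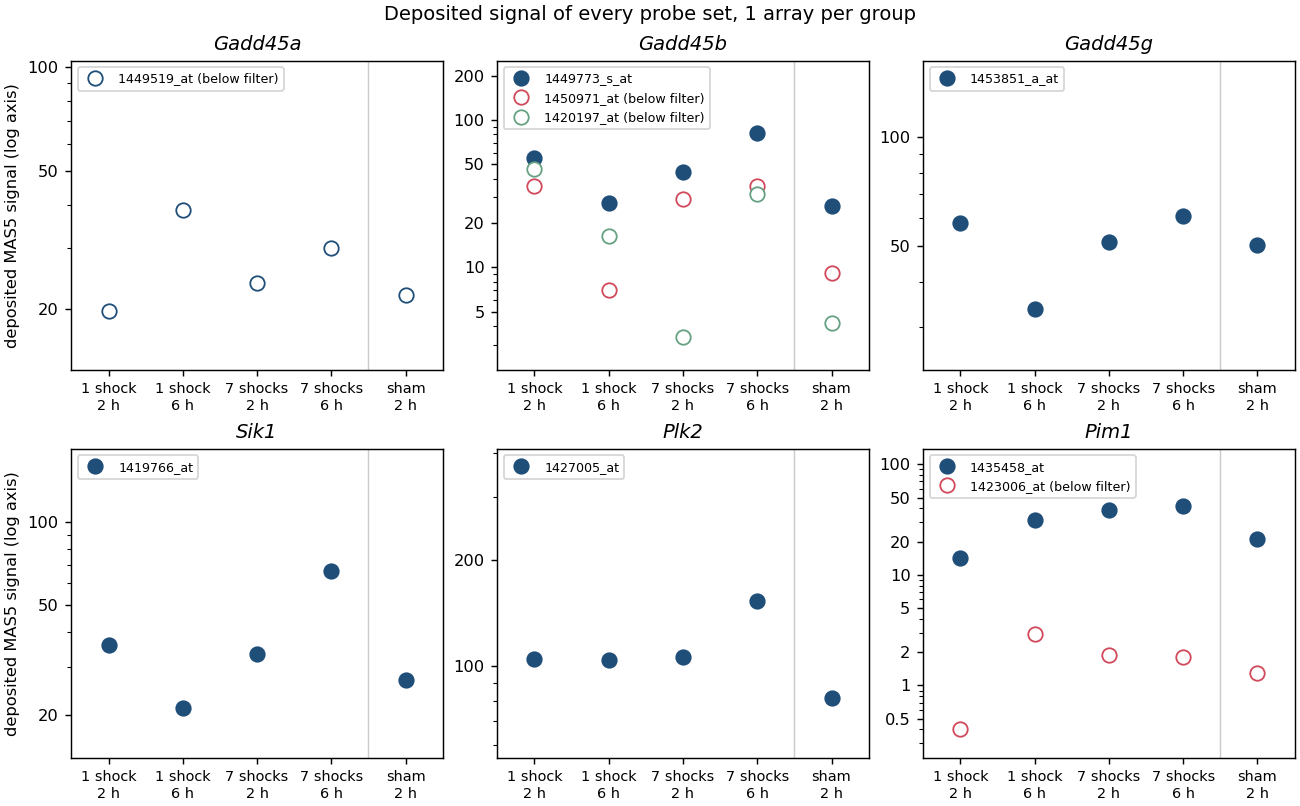
Deposited MAS5 signal (log axis) of each of the 9 probe sets on the 5 arrays, with the 4 ECS arrays left of sham; filled points passed the brightness filter and open points did not. The 3 probe sets of Gadd45b were all above their sham reading at 2 h after 1 shock (35.8 to 54.8 against 4.2 to 26.1) and at 6 h after 7 shocks (31.4 to 82.2).

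Of the kinases, Sik1 had the widest range over the arrays. Its probe set 1419766_at read 35.8 after 1 shock at 2 h, 21.2 after 1 shock at 6 h, 33.2 after 7 shocks at 2 h and 66.8 after 7 shocks at 6 h, against 26.8 in sham. The log2 differences from sham were 0.53, -0.72, -0.21 and 0.79, none past 2-fold. Without rescaling the value at 2 h after 7 shocks turned to 0.30, and that at 6 h after 7 shocks was 1.28, past 2-fold. The array of 7 shocks at 6 h was the highest and that of 1 shock at 6 h the lowest.

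Plk2 differed less. Its probe set 1427005_at read 105.2 after 1 shock at 2 h, 104.3 after 1 shock at 6 h, 106.1 after 7 shocks at 2 h and 152.8 after 7 shocks at 6 h, against 81.4 in sham. After centring, the differences from sham were 0.50, -0.04, -0.13 and 0.41. All 4 ECS arrays were above sham as deposited, and 2 of 4 were above it after centring, so the direction of the remaining pair depends on the scaling.

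Pim1 followed another order. Its probe set 1435458_at read 14.1 after 1 shock at 2 h, 31.5 after 1 shock at 6 h, 39.0 after 7 shocks at 2 h and 41.8 after 7 shocks at 6 h, against 21.3 in sham. The differences from sham were -0.42, 0.14, 0.33 and 0.45, so the array of 1 shock at 2 h was the lowest. The second probe set, 1423006_at, read 0.4 to 2.9 on the ECS arrays and 1.3 in sham. These readings lie at the 4.27th to 17.3rd percentile of their arrays and carry no order.

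Against sham, the question at 2 h was how these genes differed after 1 shock, or after a course of 7, at the matched time. No array separates the last of the 7 shocks from the earlier ones. At 2 h after 1 shock 1 of the 5 genes that passed the filter (Gadd45b) was past 2-fold and higher, where 13.1% of all 6665 kept genes were past it in either direction and 6.29% were higher. At 2 h after 7 shocks 0 of the 5 were past 2-fold, where 14% of all genes were. At 6 h after 1 shock it was 0 of 5, where 15% of all genes were. At 6 h after 7 shocks it was 1 of 5 (Gadd45b, higher), where 14.6% of all genes were past it and 7.4% were higher. These 4 comparisons share the sham array. The median of the 5 genes was 0.50 and -0.32 at 2 h and 6 h after 1 shock and -0.13 and 0.45 after 7 shocks, beside 0.01, 0.07, 0.01 and 0.02 for all genes. With a pseudocount of 6.1 in place of 1.2, the Gadd45b difference at 6 h after 7 shocks was 0.99 and no longer past 2-fold.

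**Figure D2:**
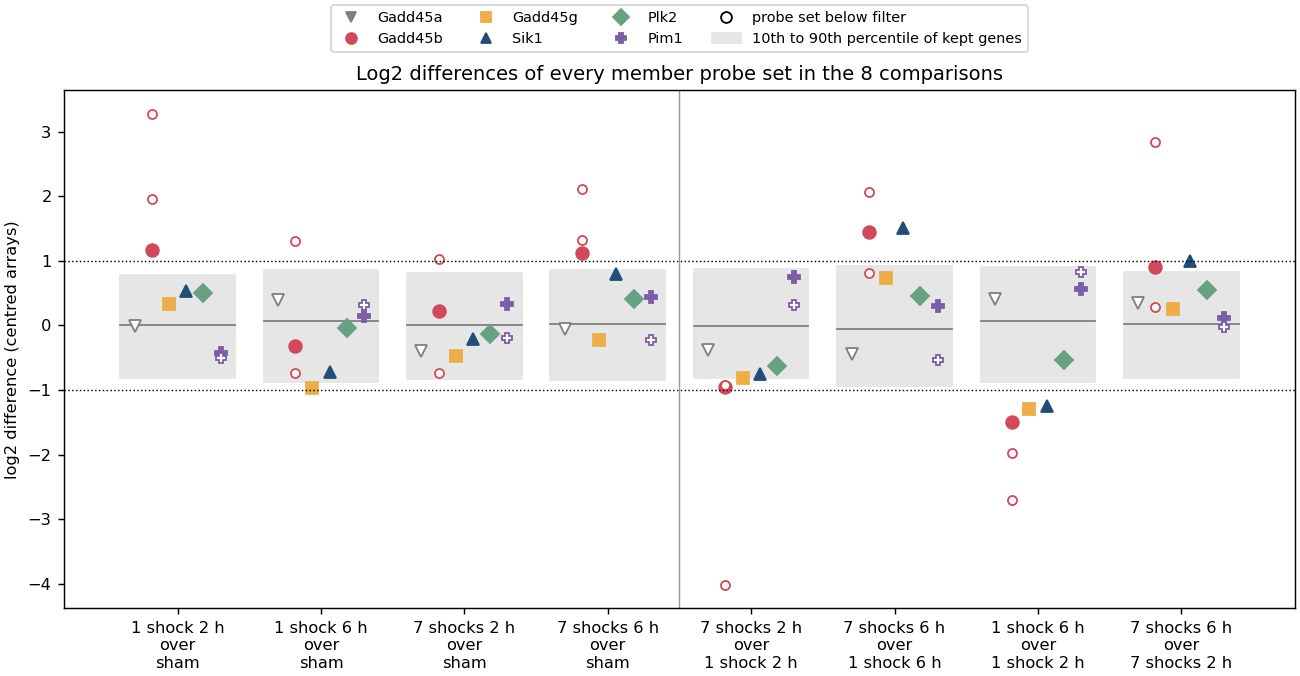
Log2 differences (first group over second, arrays centred) of every probe set in the 8 comparisons; filled symbols passed the filter, grey bars span the 10th to 90th percentile of all 6665 kept genes with their median, and dotted lines mark 2-fold. Gadd45b lies above the grey bar at 2 h after 1 shock (1.17) and at 6 h after 7 shocks (1.13), and Gadd45b, Gadd45g and Sik1 lie below it for 6 h over 2 h after 1 shock (-1.49, -1.29 and -1.25).

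Comparing 6 h with 2 h asked how the genes differed with time after 1 shock, or after the end of a course of 7. After 1 shock, 3 of the 5 genes that passed the filter were at least 2-fold lower at 6 h than at 2 h, where 16.1% of all genes were past 2-fold in either direction and 7.86% were lower. Gadd45b differed by -1.49 (its other probe sets by -2.70 and -1.97), Gadd45g by -1.29, Sik1 by -1.25 and Plk2 by -0.54. Pim1 was at 0.57, and Gadd45a, below the filter, at 0.41. Without rescaling these differences were -0.96 for Gadd45b, -0.77 for Gadd45g, -0.72 for Sik1 and -0.01 for Plk2, so none of the 4 was past 2-fold and Plk2 was level. Pim1 was then past 2-fold, at 1.10. Each of these values rests on the array of 1 shock at 6 h, which stood apart, and no value can be had without it.

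After 7 shocks, 1 of the 5 genes (Sik1) was at least 2-fold higher at 6 h than at 2 h, where 13.7% of all genes were past 2-fold and 6.78% were higher. Sik1 differed by 1.00, and by 0.98 without rescaling, so it lies at the threshold. Gadd45b was at 0.90, with 0.29 and 2.85 on its other probe sets, Plk2 at 0.54, Gadd45g at 0.26 and Pim1 at 0.12. The 2 time comparisons share no array. Of the 5 genes, 4 (Gadd45b, Gadd45g, Sik1 and Plk2) were lower at 6 h after 1 shock and higher at 6 h after 7 shocks, and 24.0% of all kept genes had these signs. Those signs held for the 4 genes under each of the 8 alternatives, though Plk2 after 1 shock was only just below 0 without rescaling. Taking the mean of kept probe sets could not alter them, as each of the 4 has a single kept probe set. Leaving out _x_at and _s_at probe sets replaced the probe set of Gadd45b alone. The time difference after 7 shocks exceeded that after 1 shock by at least 1 in these 4, and in 13.6% of all genes.

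**Figure D3:**
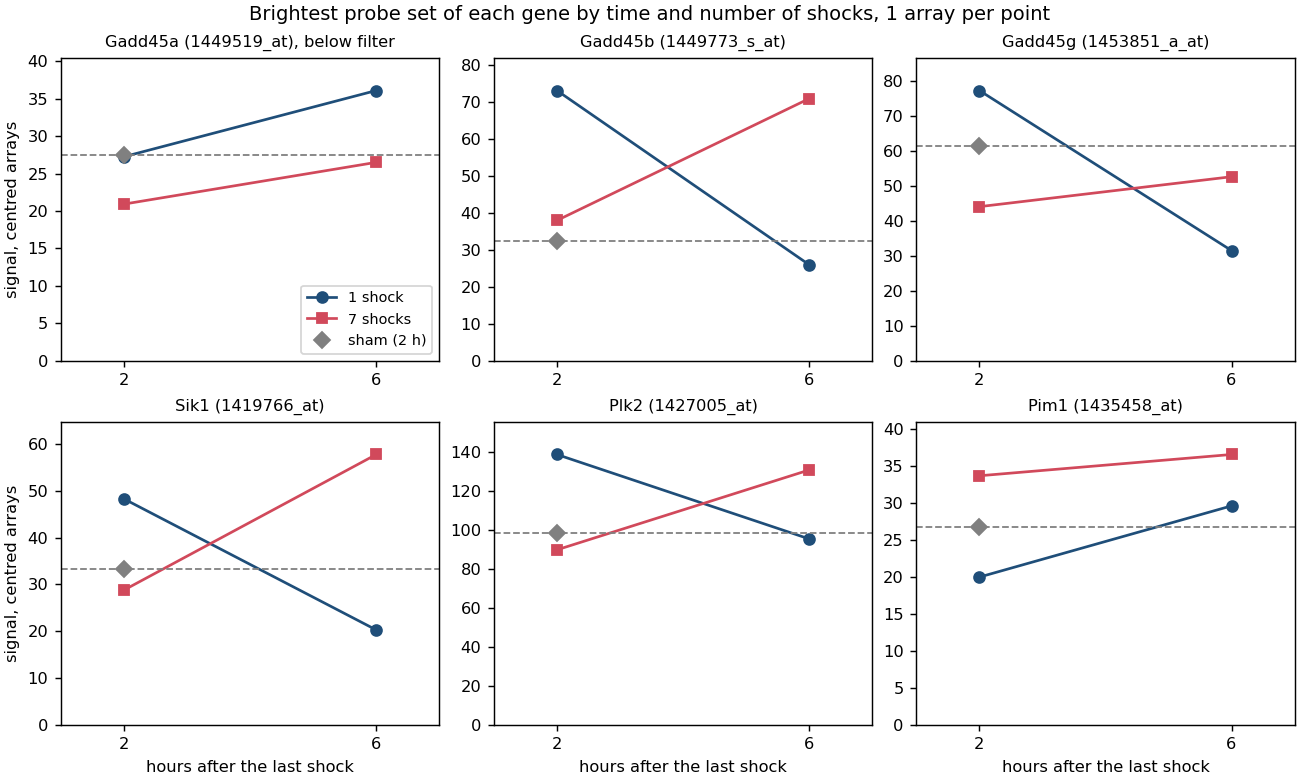
Centred signal (linear axis from 0) of the brightest probe set of each gene at 2 h and 6 h after 1 shock (circles) and after 7 shocks (squares), with the 2 h sham as a diamond and a dashed line, 1 array per point. The 2 lines cross for Gadd45b, Gadd45g, Sik1 and Plk2 and do not cross for Gadd45a and Pim1.

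Set by number of shocks, Gadd45b, Gadd45g, Sik1 and Plk2 were lower after 7 shocks than after 1 at 2 h and higher at 6 h, whereas Pim1 was higher and Gadd45a lower (-0.38 and -0.45) at both times. The arrays are those of the time comparisons, so these signs are not an independent result. The share of all genes with these signs was not counted. At 2 h, 0 of the 5 genes were past 2-fold for 7 shocks over 1 shock, where 14.8% of all genes were. Gadd45b was at -0.95, Gadd45g at -0.81, Sik1 at -0.75 and Plk2 at -0.63, whereas Pim1 was at 0.75. Without rescaling these values at 2 h shrank to -0.31 for Gadd45b, -0.17 for Gadd45g and -0.11 for Sik1, Plk2 turned to 0.01 and Gadd45a to 0.26, and Pim1, at 1.39, was past 2-fold. At 6 h, 2 of the 5 genes (Gadd45b at 1.45 and Sik1 at 1.51) were past 2-fold and higher for 7 shocks over 1, where 17.6% of all genes were past it and 8.6% were higher. Gadd45g was at 0.74, Plk2 at 0.45 and Pim1 at 0.30. The differences of Gadd45b and Sik1 at 6 h ranged from 1.31 to 2.07 and from 1.33 to 1.60 over the settings run.

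Dim genes varied more between these arrays than bright ones, and 4 of the 5 genes lie among the 25% dimmest of the kept genes, with mean signals of 28.4 to 55.1. In that group 24.2% to 30.9% of genes were past 2-fold, depending on the comparison. Gadd45b, Gadd45g, Sik1 and Pim1 belong there. Plk2 lies among genes with mean signals of 108 to 267, of which 7.20% to 13.2% were past 2-fold.

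**Figure D4:**
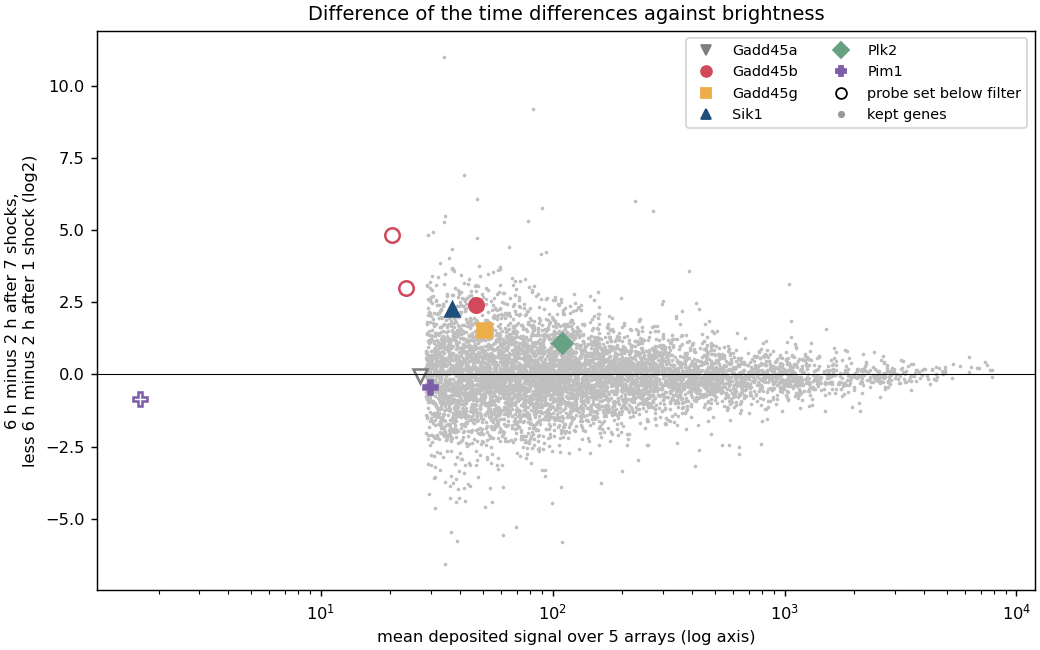
The 6 h minus 2 h difference after 7 shocks less the same difference after 1 shock (log2) against mean deposited signal (log axis), for all 6665 kept genes (grey) and every probe set of the 6 genes (open symbols: below the filter). Gadd45b (2.39), Sik1 (2.26) and Gadd45g (1.55) lie in the upper part of a cloud that is wide at low signal, and Plk2 (1.08) lies above most genes of its brightness.

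As a reference for neuronal activity, the immediate early genes Fos, Egr1 and Arc were read on the same arrays. At 2 h after 1 shock they differed from sham by 3.87, 2.53 and 3.13, and at 2 h after 7 shocks by 2.58, 2.11 and 1.59. For 6 h over 2 h after 7 shocks, Fos was at -1.57 and Egr1 at -1.87, while Arc, a synaptic scaffold, was at 0.40. Over the same pair of arrays Gadd45b, Sik1 and Plk2 were at 0.90, 1.00 and 0.54, Gadd45g at 0.26 and Pim1 at 0.12. All 5 kept genes were thus above 0 there, as was Arc. The share of all genes above 0 was not counted, and their median was 0.02. For 6 h over 2 h after 1 shock, Fos was at -2.99, Egr1 at -2.20 and Arc at -3.25, all lower, as were Gadd45b, Gadd45g, Sik1 and Plk2. Cdkn1a, a p53-induced cell cycle inhibitor and a binding partner of GADD45 proteins, was at 0.79 from sham at 2 h and -0.33 at 6 h after 1 shock, and at 0.19 at 2 h and 0.03 at 6 h after 7 shocks, on its kept probe set. Its probe set below the filter was 0.89 to 2.54 above sham on all 4 ECS arrays, highest at 2 h after 1 shock.

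Profiles were compared by the Euclidean distance between the 5 centred log2 values, each gene set to its own mean. All profiles share the same 5 arrays, and of all kept genes the median distance to Gadd45b was 1.58. Sik1 was the 11th nearest gene to Gadd45b, at 0.46, ahead of Plk2 (0.86), Gadd45g (0.97) and Pim1 (1.63). The nearest 3 were Dph6, a diphthamide synthesis enzyme (0.20), the cell surface protein gene Cd99 (0.30) and Pi4k2a, a phosphatidylinositol kinase (0.34). Nearest to Gadd45g were Uggt1, a folding sensor of the endoplasmic reticulum (0.10), the proprotein convertase Furin (0.16) and Gstz1, an enzyme of tyrosine breakdown (0.21). Nearest to Sik1 were Ipp (0.29), Pi4k2a (0.30) and the zinc finger factor Zbtb17 (0.31), with Gadd45b in place 27. When ranked by correlation instead, 1 of the 3 nearest genes was shared for Gadd45b and for Gadd45g and 0 for Sik1.

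Of the 4 genes that shared their signs in both time comparisons, the promoters of Gadd45b, Gadd45g and Plk2 were searched and are shown, and Sik1 was not searched. The 3 are shown because their RefSeq promoters each hold a searched motif, TATAAA in Gadd45b and Gadd45g and TGACGTCA in Plk2. Each line gives the 250 bases before the RefSeq start site in assembly GRCm38.p6, 5′ to 3′ on the gene's strand, here the plus strand, with matches in capitals. Gadd45b lies at chr10:80929841-80930090, Gadd45g at chr13:51846425-51846674 and Plk2 at chr13:110394794-110395043.
Gadd45b: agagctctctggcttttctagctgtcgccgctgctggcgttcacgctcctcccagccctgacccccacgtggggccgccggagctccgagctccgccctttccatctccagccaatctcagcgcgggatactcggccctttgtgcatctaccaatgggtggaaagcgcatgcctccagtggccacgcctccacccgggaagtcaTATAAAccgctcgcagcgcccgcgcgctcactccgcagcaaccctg
Gadd45g: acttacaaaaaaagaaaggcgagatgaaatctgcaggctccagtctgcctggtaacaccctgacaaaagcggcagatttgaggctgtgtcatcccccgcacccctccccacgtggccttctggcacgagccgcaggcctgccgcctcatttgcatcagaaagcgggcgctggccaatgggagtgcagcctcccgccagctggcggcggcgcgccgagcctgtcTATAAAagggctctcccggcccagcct
Plk2: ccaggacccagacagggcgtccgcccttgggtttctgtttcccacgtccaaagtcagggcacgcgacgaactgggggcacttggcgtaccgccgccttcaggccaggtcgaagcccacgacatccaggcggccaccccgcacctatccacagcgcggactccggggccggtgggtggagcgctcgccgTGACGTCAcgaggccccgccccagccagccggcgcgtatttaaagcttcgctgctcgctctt

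The capitals in Plk2 mark the full cyclic AMP response element TGACGTCA at bases -62 to -55 from the start, the site to which CREB binds. The capitals in Gadd45b (-46 to -41) and Gadd45g (-27 to -22) mark TATAAA on the gene's strand, a motif added to the search after the results were known. Searches covered 250 bases before to 50 after the start, on both strands except for TATAAA. TGACGTCA was in 1.79% of all 32851 promoter regions, TATAAA in 8.32%, and the core TGACG, which is part of TGACGTCA, in 20.8%. Of the regions matched to 5 of the 6 genes, Plk2 alone held TGACG, with a further copy on the minus strand at 22 to 26 after the start. TGANTCA, the AP-1 site, and the CArG box had 0 matches in the promoters of Gadd45a, Gadd45b, Gadd45g, Plk2 and Pim1, and were in 7.81% and 1.63% of all regions. A match describes the letters and does not show that a factor binds.

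Genes known to work with the 6 were taken from a list of 77, of which 60 had a probe set of a single symbol and 43 passed the filter. Of these 43, 6 were higher and 2 lower than sham at 2 h after 1 shock, or 18.6%, beside 13.1% of all genes. At 6 h after 1 shock 2 were higher and 1 lower (6.98%, beside 15%), at 2 h after 7 shocks 5 were higher and 1 lower (14.0%, beside 14%), and at 6 h after 7 shocks 3 were higher and 2 lower (11.6%, beside 14.6%). For 7 shocks over 1, 6 were higher and 4 lower at 2 h (23.3%, beside 14.8%), and 1 was higher and 0 lower at 6 h (2.33%, beside 17.6%). The list's share was thus above that of all genes in some comparisons and below it in others.

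Most of the calls at 2 h after 1 shock came from the PIM and JAK-STAT genes, with 4 of 11 kept genes higher and 1 lower (45.5%, beside 13.1% of all genes), and a median of 0.64 beside 0.01 for all genes. On the other ECS arrays 0 of the 11 were past 2-fold at 6 h after 1 shock (beside 15% of all genes). At 2 h after 7 shocks 2 were higher and 1 lower (27.3%, beside 14%). At 6 h after 7 shocks 1 was higher (9.09%, beside 14.6%), and the median was -0.08. Stat5b, a transcription factor that carries cytokine and growth hormone signals, read 114.8 after 1 shock at 2 h, 42.6 after 1 shock at 6 h, 91.6 after 7 shocks at 2 h and 41.6 after 7 shocks at 6 h, against 27.5 in sham. Its differences from sham were 2.15 at 2 h after 1 shock and 1.19 at 2 h after 7 shocks, and 0.21 and 0.09 at 6 h. Stat3, which carries leptin and interleukin signals, was 1.31 above sham at 2 h after 1 shock and 1.54 at 6 h after 7 shocks, with 2.11 and 1.05 on its other kept probe set. Jak2, the kinase upstream of both, was at 1.22 after 1 shock at 2 h. Pim2, a close relative of Pim1, was at 1.28 and 2.41 at 2 h after 1 and 7 shocks and at 0.12 and 0.22 at 6 h. Its sham reading was dim, at 16.0.

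In the same group Socs2, a feedback inhibitor of this pathway, was at -1.17 after 1 shock at 2 h, and Bad, a cell death protein that PIM kinases inactivate by phosphorylation, was at -1.38 after 7 shocks at 2 h (-0.80 on its other kept probe set). The Pim1 gene itself was at -0.42 and 0.33 on those 2 arrays. Among relatives of Plk2 the centriole kinase Plk4 read 44.6, 75.7, 14.8 and 154.5 at 2 h and 6 h after 1 shock and at 2 h and 6 h after 7 shocks, against 7.7 in sham. Its differences of 2.50, 2.72, 0.34 and 3.64 rest on that dim sham reading. Rap1a, a small GTPase controlled by targets of PLK2 at synapses, was at 1.43 after 7 shocks at 2 h, and at -0.51 on its other kept probe set.

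GADD45 partners and stress kinases had 12 of 19 genes kept, of which 0 were past 2-fold from sham at 2 h after 1 shock (beside 13.1% of all genes), 2 at 6 h after 1 shock (beside 15%), 1 at 2 h after 7 shocks (beside 14%) and 1 at 6 h after 7 shocks (beside 14.6%). Mapk8, the stress kinase JNK, was at 1.63 after 7 shocks at 2 h and -1.04 after 7 shocks at 6 h. Map2k4, a kinase that activates it, was at 1.34 after 1 shock at 6 h on its brightest probe set and at -0.00 on its other kept probe set. Foxo3, a transcription factor that induces Gadd45a, was at -1.73 after 1 shock at 6 h, with -0.78 and -1.99 on its other kept probe sets. Mdm2, the ubiquitin ligase of p53, was at 0.98 after 7 shocks at 6 h (0.16 on its other kept probe set).

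Of the genes of DNA demethylation and methylation 6 of 11 were kept. Ercc5, a repair nuclease that works with GADD45 proteins, was at 1.01 after 1 shock at 2 h and 1.39 after 7 shocks at 6 h. These are also the arrays on which the brightest Gadd45b probe set was past 2-fold, but the 1.01 lies at the threshold. As deposited, Ercc5 read 57.8 at 2 h and 54.6 at 6 h after 1 shock. It read 36.9 at 2 h and 116.7 at 6 h after 7 shocks, against a dim 30.9 in sham. Dnmt3a, a DNA methyltransferase, was at -1.26 after 7 shocks at 6 h, with -0.99 to 0.84 on its other kept probe sets, and Taf12, a general transcription factor subunit linked to GADD45 function, was at -0.94. In the SIK pathway 10 of 21 genes were kept, of which Hdac7, a deacetylase that SIK kinases phosphorylate, was at 1.89 after 7 shocks at 2 h, and Crebbp, a CREB coactivator, at -1.05 after 1 shock at 2 h. By brightest probe set, none of the other kept genes of that group was past 2-fold from sham, although second kept probe sets of Creb1 and Mef2a reached -1.52 and -1.86, and members below the filter such as Crtc2 (-2.59 at 6 h after 7 shocks) and Nr4a3 (1.67 at 2 h and -3.15 at 6 h after 1 shock) were past it.

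**Figure D5:**
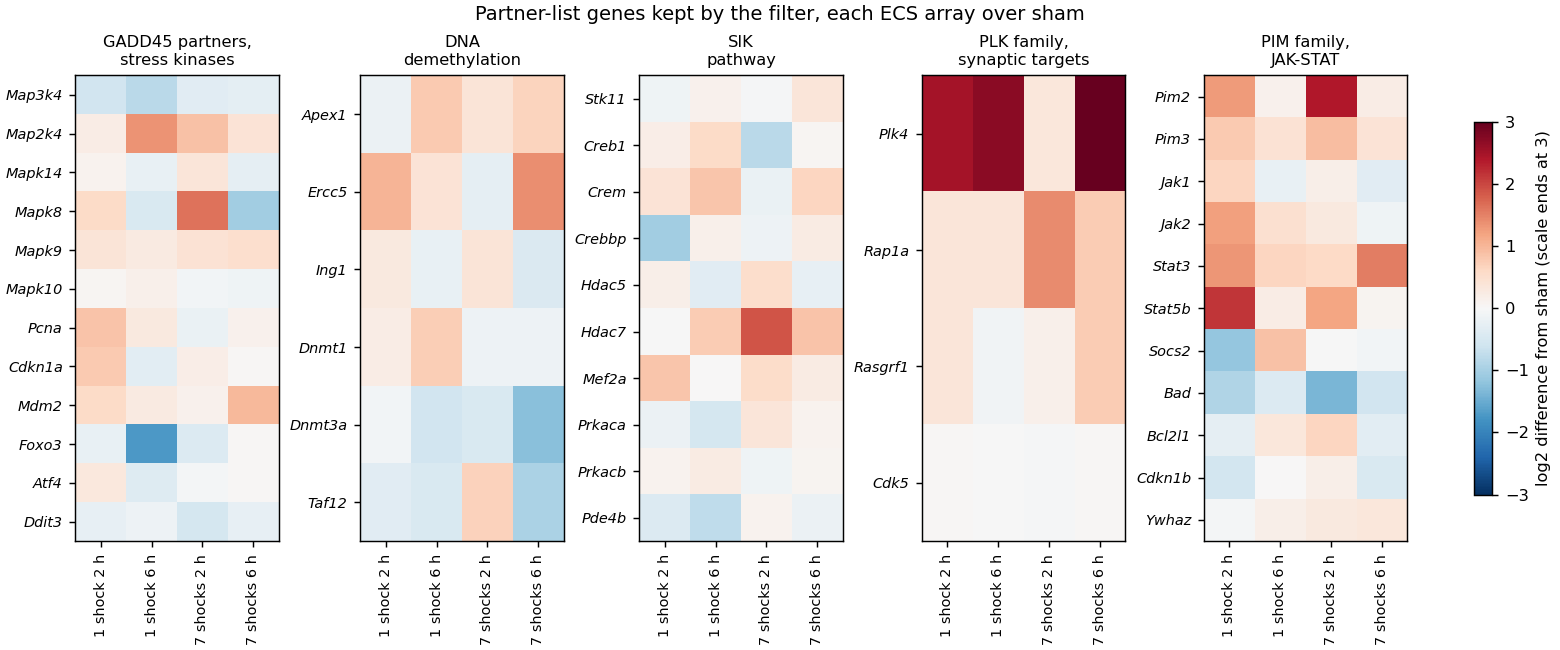
Log2 differences from sham (colour, scale ending at 3 in each direction) of the 43 partner genes that passed the filter, by group, for each of the 4 ECS arrays. Stat5b (2.15) and Pim2 (1.28) are red at 2 h after 1 shock and again at 2 h after 7 shocks (1.19 and 2.41), and Plk4 is red on 3 of the 4 arrays.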

How the data were processed

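RNA of pooled microdissected VMH was measured on 5 arrays, 1 per group, taken from the labels. The deposited values are MAS5 intensity signals per probe set on a linear scale, per the submitters' processing notes; no source used here gives the version of that software or its scaling. From 22690 probe sets, 64 controls were dropped, as were 691 annotated to more than 1 symbol and 1555 to none. Of the remaining 20380, RefSeq gene IDs matched 20351. Signals were logged (base 2) with 1.2 added, that being their overall 10th percentile. The top 50% of probe sets by mean were kept (10401 probe sets, 6665 genes), each array was centred on their median, and a gene took its brightest probe set. A probe set below the filter is given as a value only.

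There were 8 comparisons and no test, as each group is 1 array. The 6 genes, the partner list and the marker lists were chosen with earlier results of these data known. Named genes were the 6 with every probe set, partner genes past 2-fold from sham on at least 2 ECS arrays in 1 direction, the 12 others with the largest differences, and the 3 nearest profiles of genes spanning at least 1 log2 unit. Fos, Egr1, Arc and Cdkn1a served as references. The steps were tested on simulated data. Alternatives were no rescaling, quantile normalization, pseudocounts of 0 and 6.1 (from the 25th percentile), no filter, the top 25%, the mean of kept probe sets, and leaving out probe sets with the suffix _x_at or _s_at. Analyses used Python 3.11.15, numpy 2.4.6, pandas 2.3.3 and matplotlib 3.10.9.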

Additional observations from a re-analysis of the deposited data

Results flagged for a closer look

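In 4 of the genes the 6 h minus 2 h difference ran one way after 7 shocks and the other way after 1 shock. The difference between the 2 time differences (after 7 shocks less after 1 shock, log2) was 2.39 for Gadd45b on its probe set 1449773_s_at, 2.26 for Sik1, 1.55 for Gadd45g and 1.08 for Plk2. With 1 array per group this difference was not tested. The signs are not particular to these genes, since 24.0% of all kept genes were lower at 6 h after 1 shock and higher after 7. The reference gene Arc was among them, at -3.25 and 0.40, with a difference of 3.65. Fos and Egr1 were lower at 6 h after 1 shock and after 7. Among all kept genes 97.8% lay below the value of Gadd45b, 97.4% below that of Sik1, 93.6% below that of Gadd45g and 87.7% below that of Plk2. Of the 25% dimmest kept genes, to which the first 3 belong, 7.20% had a value of at least 2 and 22.0% of at least 1. Over the settings run, the value ranged from 1.84 to 3.01 for Gadd45b, 1.71 to 2.32 for Sik1, 1.00 to 1.60 for Gadd45g and 0.53 to 1.13 for Plk2.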

How the results depend on the processing

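No called difference of the 6 genes changed sign under the 8 alternatives. The shifts between array medians, from -0.13 to 0.51 against sham, are smaller than the 1 log2 unit of a call. Leaving out the rescaling thus could not turn the sign of a call, but it could undo the call, as given below. Without a filter on low values the genes past 2-fold numbered 3081 and 3511 over sham after 1 shock (2 h, then 6 h), 3274 and 3448 over sham after 7 shocks, 3269 and 3719 for 7 shocks over 1 at 2 h and 6 h, and 3563 and 3295 for 6 h over 2 h after 1 and 7 shocks, because more genes were tested. In the top 25% by mean they numbered 190, 259, 230 and 259, then 247 and 323, then 279 and 219 in the same order, because fewer were. The main counts were 874, 998, 930 and 976, then 985 and 1171, then 1070 and 916. Without rescaling they were 1520 and 1557 for 7 shocks over sham at 2 h and 6 h, 1944 for 7 shocks over 1 at 2 h and 1820 for 6 h over 2 h after 1 shock.

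In the top 25% only Plk2 was left, and 0 of the genes were called for 1 shock at 2 h over sham, 7 shocks at 6 h over sham, 7 over 1 at 6 h, and 6 h over 2 h after 1 and after 7 shocks. Without _s_at and _x_at probe sets Gadd45b lost its kept probe set, which left 0 called for 1 shock at 2 h and for 7 shocks at 6 h over sham and 1 for 7 over 1 at 6 h, although its other probe set differed by 1.97, 1.34 and 2.07 in these comparisons. Without rescaling 1 was called for 6 h over 2 h after 1 shock, 1 for 7 over 1 at 2 h, 0 for 6 h over 2 h after 7 shocks and 2 for 7 shocks at 6 h over sham. With a pseudocount at the 25th percentile 0 were called for 6 h over 2 h after 7 shocks and for 7 shocks at 6 h over sham. No paired analysis was possible because each group is 1 array and the labels carry no replicate numbers.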

Other observations

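Several partner genes below the brightness filter were read after their values were seen, as deposited signals. The orphan nuclear receptors of the NR4A family, activity-induced targets of CREB, had mean signals below the filter, with single readings up to 60.7. Nr4a3 read 51.5 after 1 shock at 2 h, 1.5 after 1 shock at 6 h, 37.4 after 7 shocks at 2 h and 10.5 after 7 shocks at 6 h, against 17.0 in sham. Nr4a1 read 35.0, 6.9, 28.8 and 27.0 on the same ECS arrays, against 16.2 in sham. Nr4a2 read 25.3, 11.7, 21.8 and 60.7, against 18.6 in sham, so its highest reading was after 7 shocks at 6 h, as for Sik1. All 3 genes read lowest after 1 shock at 6 h. On centred arrays 19.0% of all kept genes were lowest there, and that share was not counted for genes below the filter. Other partner genes below the filter went the other way. Crtc2 (18.9), Crtc3 (11.6) and Mbd4 (15.0), for example, read highest after 1 shock at 6 h.

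Among the JAK-STAT genes below the filter, Socs3, the feedback inhibitor of leptin signalling, read 51.0 after 7 shocks at 2 h and 1.8 to 10.3 on the other ECS arrays, against 8.1 in sham. Stat5a read 29.8 after 7 shocks at 2 h and 3.7 to 5.4 on the other ECS arrays, against 2.7 in sham.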
